A study of Mus musculus with 35 samples.

Results

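Interferon-stimulated genes are the genes that cells switch on when interferon binds its receptor. Here, 40 such genes out of the 55356 counted genes were followed at steady state in mouse tissues. They form a fixed list of gene symbols. Each symbol was matched through its ENSEMBL identifier to the gene that was counted, and the level in every tissue and the spread between libraries of a tissue were then read. The list was drawn up with these levels and spreads already known, so both are descriptions of the list. Calls on them (colon against the other tissues, and the sexes within colon) are given beside the share of all genes called and support nothing further. RNA-seq had been made from adult C57BL/6J mice of both sexes, with brain, cerebellum, heart and colon in 3 female and 3 male libraries each (male heart had 2), 3 libraries of ovary and 3 of testis, 29 libraries in 10 groups. No treatment or infection is named for any group, and all libraries came from ribosomal RNA-depleted total RNA with a strand-specific protocol. The labels do not say whether libraries of a group came from separate animals, so the P values measure the spread between these libraries, which may be technical. In whole tissue, fewer cells of a type and less RNA per cell cannot be told apart.

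Interferons are secreted when sensors of foreign nucleic acid fire. Type I interferon (IFN-alpha, IFN-beta and relatives) binds IFNAR1 and IFNAR2, type III interferon binds IFNLR1 with IL10RB, and both activate the kinases JAK1 and TYK2. A complex that contains STAT2 and IRF9 then binds the interferon-stimulated response element (ISRE) in promoters. IFN-gamma acts through its own receptor and a separate promoter element, the gamma-activated site. Many of the induced genes encode sensors and signalling factors of the same pathway, and others encode proteins that block viral replication or attack intracellular microbes. In the gut, the epithelium lies beside a dense microbial community, and responses to type III interferon are prominent there.

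The libraries held 11742417 to 36194255 counts (median 24403774), and all 40 genes passed the filter on low counts that left 29911 genes for testing. Of 23 marker genes for the tissue labels, 22 separated their own tissue from the others. A pair of libraries stood apart, female colon replicate 2 and female heart replicate 3, and levels and counts that move with them are given with and without them. For 37 of the 40 genes no same-strand exon bases were shared with another counted gene. The exceptions were Herc6, Gbp7 and Parp14. The counted loci of Igtp and Ifi47 each joined a further gene, Irgm2 and Olfr56 respectively. Near-identical relatives, such as those in the Ifit, Oas, Gbp and IRG families, could have split or lost reads in the counting, and the levels within these families are uncertain to that extent.

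Colon held the highest level of most interferon-stimulated genes. It had the highest of the 6 tissue means for 32 of the 40 genes (18.3% of all tested genes peaked there), ovary for 5 (21.6%), heart for 2 (7.08%), testis for 1 (28%) and neither brain (13.2%) nor cerebellum (11.8%) for any. Levels are given as FPKM, counts scaled to the length of the counted exons and to the library total. The median level of the 40 genes was 27.6 FPKM in colon, 9.47 FPKM in ovary, 5.17 FPKM in heart, 2.31 FPKM in testis, 2.28 FPKM in cerebellum and 1.66 FPKM in brain. Over all tested genes the medians differed much less, from 0.567 FPKM in heart to 1.69 FPKM in testis. At least 1 FPKM was reached by 39 of the genes in colon, 37 in ovary, 35 in heart, 30 in testis, 29 in cerebellum and 25 in brain. For 14 genes every colon library lay above every library of the other tissues (6.52% of all tested genes did so). Without female colon replicate 2, the colon mean was still the highest for 29 of the 40 genes, with ovary then highest for 7 and testis for 2. With the male colon libraries alone, colon no longer led for Irf9, Herc6, Ifit3, Oasl2, Gbp7, Rsad2, Cmpk2, Xaf1 and Ifi44. It stayed highest for the other genes that it led with all libraries. The lowest mean fell in brain for 25 genes, in testis for 13 and in cerebellum for 2.

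**Figure D1:**
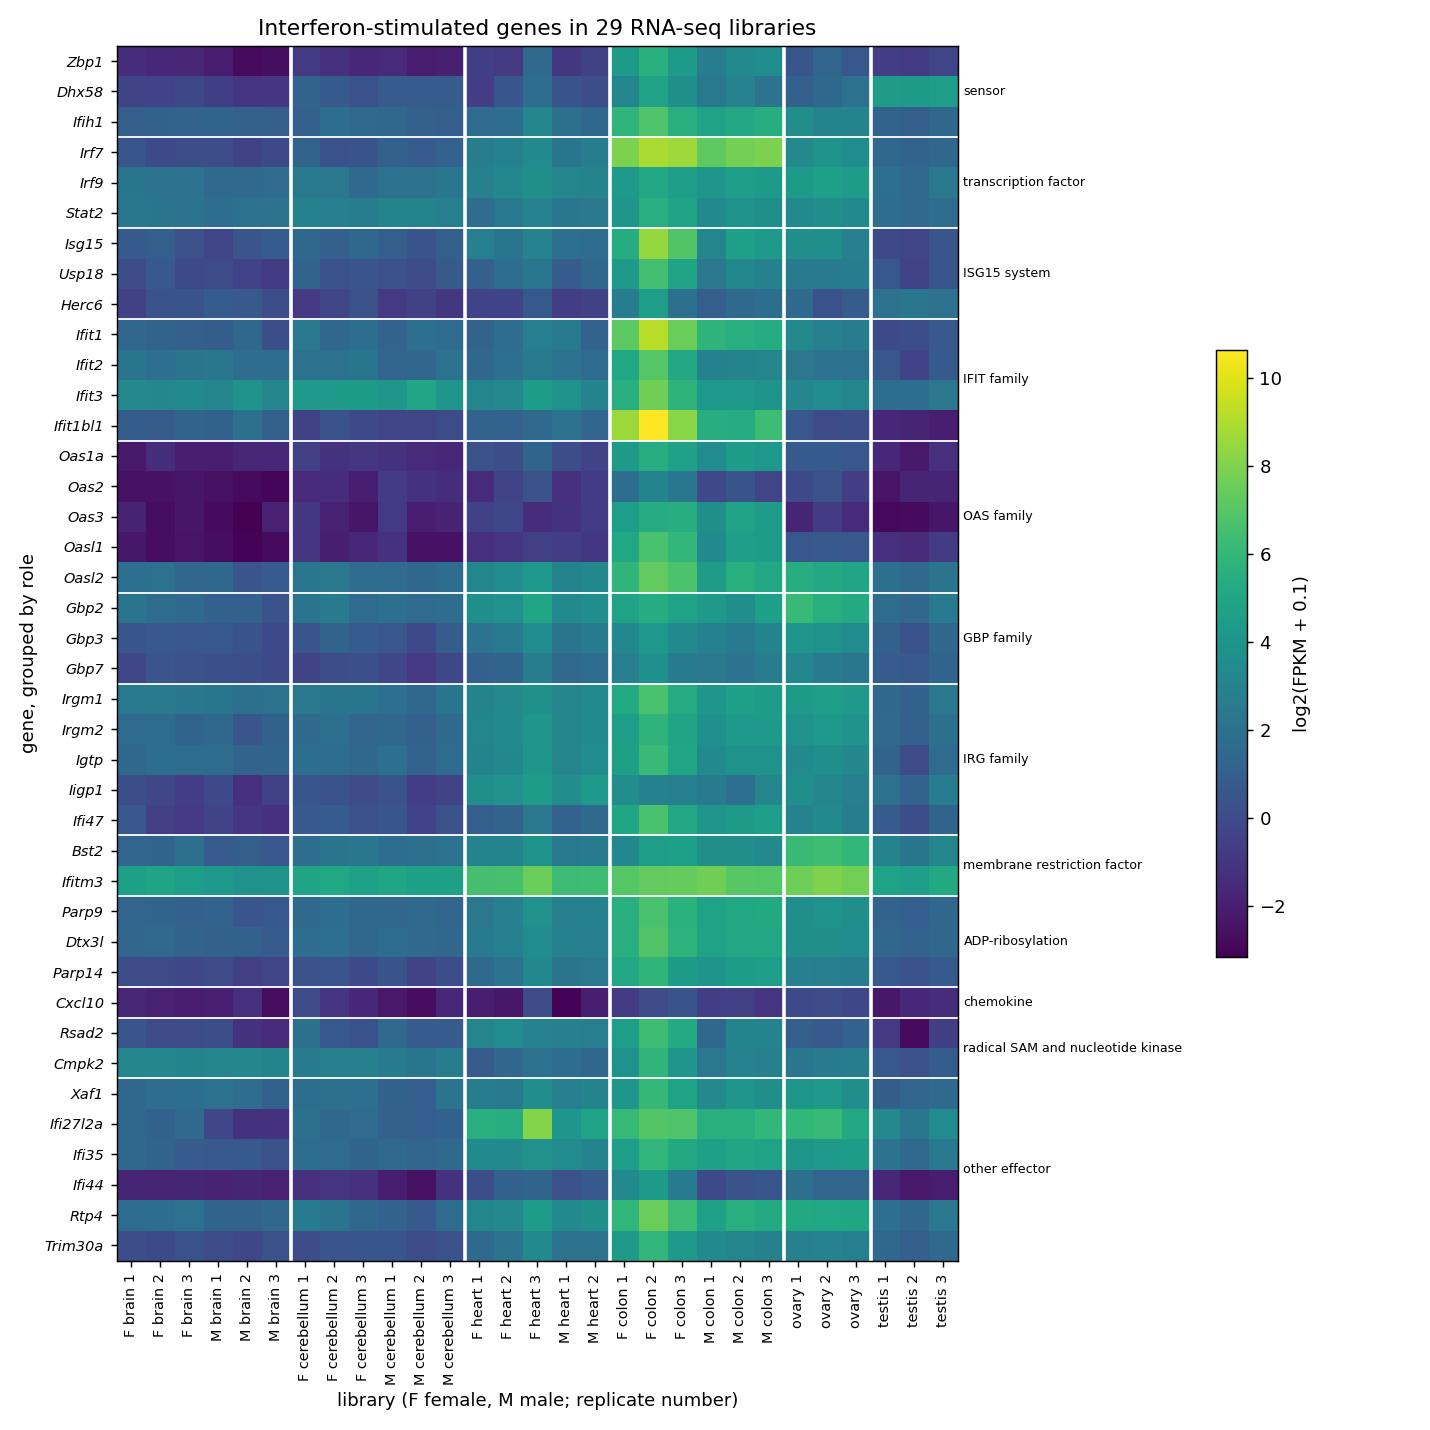
Level of each of the 40 interferon-stimulated genes (rows, grouped by role) in each of the 29 libraries (columns, grouped by tissue and sex), in colour as log2(FPKM + 0.1). With yellow as the highest level, the colon columns are the brightest for most rows, whereas the brain and cerebellum columns are mostly dark.

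Among the sensors, Ifih1 encodes MDA5, which recognises long double-stranded RNA in the cytosol. Its level in colon was 58.2, 114 and 45.0 FPKM in the female libraries and 27.2, 36.2 and 43.9 FPKM in the male libraries, a mean of 54.1 ± 31.3 FPKM (SD, n = 6). Every other library lay below, with the highest at 12.8 FPKM in ovary, and the means of ovary (9.52 ± 2.80 FPKM, n = 3) and heart (4.40 ± 2.71 FPKM, n = 5) overlapped in their libraries. Brain, cerebellum and testis had means of 2.08 ± 0.181, 2.48 ± 0.618 and 2.34 ± 0.408 FPKM and overlapped too. Zbp1, a sensor of Z-form nucleic acid that can trigger cell death, had a mean of 19.7 ± 15.5 FPKM in colon and 1.71 ± 0.591 FPKM in ovary, the next tissue. Dhx58, which encodes LGP2, a regulator of the same RNA-sensing helicases, was the 1 gene with its highest mean in testis (21.6 ± 1.02 FPKM, n = 3). Its testis libraries ranged from 20.6 to 22.7 FPKM, whereas the colon libraries ranged from 4.22 to 27.3 FPKM and overlapped them. On the opposite strand of Dhx58 lies Dhx58os, which had 195 to 224 counts per testis library compared with 1422 to 1623 counts for Dhx58.

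The transcription factors on the list are Irf7, the main amplifier of type I interferon genes, and Irf9 and Stat2, which are parts of the complex that binds the ISRE. Irf7 stood out in colon, at 241, 474 and 394 FPKM in the female libraries and 149, 218 and 247 FPKM in the male libraries. Its colon mean of 287 ± 121 FPKM was 23.4-fold the ovary mean of 12.3 ± 2.67 FPKM, and all 6 colon libraries lay above all others. Below these came heart at 7.11 ± 2.36, testis at 2.56 ± 0.258, cerebellum at 1.75 ± 0.481 and brain at 0.945 ± 0.240 FPKM. The lowest of these means, those of cerebellum and brain, overlapped. Irf9 behaved differently, with means of 22.8 ± 5.91 FPKM in colon and 22.2 ± 2.46 FPKM in ovary that did not differ beyond their spread. Stat2 had a mean of 21.3 ± 13.0 FPKM in colon and 11.3 ± 1.24 FPKM in ovary, and here too the libraries of these tissues overlapped.

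ISG15 is a ubiquitin-like protein that is coupled to other proteins after interferon exposure, USP18 removes it and also dampens the receptor, and HERC6 is the main mouse ligase that attaches it. Isg15 had the most uneven levels of the 3 genes within colon, with 41.2, 354 and 119 FPKM in the female libraries and 8.87, 24.7 and 19.8 FPKM in the male libraries. The colon mean of 94.6 ± 133 FPKM therefore had an SD above the mean itself. The other tissues were lower and tighter, with 10.9 ± 3.30 FPKM in ovary, 5.19 ± 1.99 FPKM in heart, 2.06 ± 0.532 FPKM in cerebellum, 1.39 ± 0.439 FPKM in brain and 0.956 ± 0.300 FPKM in testis. The lowest colon library was below the highest ovary library, so these neighbours overlapped. Usp18 had means of 27.2 ± 33.5 FPKM in colon and 5.86 ± 0.242 FPKM in ovary. Herc6 was the only one of the 3 with testis second, at 4.19 ± 0.416 FPKM after 6.85 ± 8.14 FPKM in colon.

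The Ifit genes encode tetratricopeptide-repeat proteins that bind foreign RNA and block its translation, and 4 of them lie together on chromosome 19 between positions 34550678 (Ifit2) and 34649471 (Ifit1) of GRCm38. Ifit1bl1, a mouse relative of Ifit1, had the highest tissue mean of the 40 genes, 407 ± 602 FPKM in colon, 150-fold the next tissue. The mean was 168 FPKM, 61.9-fold the next tissue, without female colon replicate 2. Single colon libraries held 378, 1602 and 295 FPKM (female) and 43.7, 41.4 and 82.9 FPKM (male). Outside the colon its means lay between 0.191 ± 0.0394 FPKM in testis and 2.72 ± 0.758 FPKM in heart, and no library of another tissue exceeded 3.96 FPKM. Ifit1 had 173 ± 201 FPKM in colon and 7.93 ± 2.09 FPKM in ovary, and Ifit2 had 36.8 ± 46.3 FPKM in colon and at most 4.35 ± 0.488 FPKM elsewhere. Ifit3 followed another order below colon (59.4 ± 72.1 FPKM), with cerebellum at 20.9 ± 5.35 FPKM, heart at 12.5 ± 5.53 FPKM and brain at 10.3 ± 2.19 FPKM. The ratio of Ifit3 to its neighbour Ifit1bl1 accordingly ran from 0.146 in colon to 25.6 in cerebellum.

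The Oas genes encode 2′-5′-oligoadenylate synthetases, which activate RNase L when they meet double-stranded RNA, and the Oasl genes encode related proteins. Oasl2 had the highest mean of the 5 listed, with 58.8, 164 and 106 FPKM in female colon and 20.9, 45.2 and 35.2 FPKM in male colon (mean 71.5 ± 53.6 FPKM). Ovary, at 36.8 ± 6.19 FPKM, overlapped colon. Heart had 11.3 ± 4.23 FPKM, and cerebellum, testis and brain followed with 3.70 ± 0.964, 3.67 ± 0.703 and 2.62 ± 1.07 FPKM. Unlike Oasl2, the enzymes Oas3 and Oas1a and the relative Oasl1 had low means outside colon. Oas3 had 28.6 ± 12.0 FPKM there, 55.6-fold its next tissue, Oas1a had 23.6 ± 10.9 FPKM and Oasl1 had 42.3 ± 34.3 FPKM, 28.9-fold its next tissue. Levels of these genes in brain rest on few reads, with as few as 2 counts of Oas2, Oas3 or Oasl1 in a library. Between genes that lie side by side, the ratio of Oasl2 to Oasl1 ran from 1.69 in colon to 42.5 in brain, and that of Oas2 to Oas3 from 0.113 in colon to 2.65 in testis.

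The guanylate-binding proteins are GTPases that assemble on pathogen vacuoles and are classical targets of IFN-gamma. Of the 3 listed, Gbp2 and Gbp3 had their highest mean in ovary and Gbp7 in colon. Gbp2 had 73.1, 46.5 and 38.7 FPKM in ovary, a mean of 52.8 ± 18 FPKM, compared with 25.5 ± 9.81 FPKM in colon and 16.1 ± 8.23 FPKM in heart. The ranges of ovary and colon overlapped, since the highest colon library had 42.1 FPKM. Cerebellum, testis and brain had 3.81 ± 0.959, 3.80 ± 1.67 and 2.58 ± 1.08 FPKM. Gbp3 was at 14.0 ± 2.40 FPKM in ovary, and Gbp7 was at 6.87 ± 3.35 FPKM in colon and 6.57 ± 2.29 FPKM in ovary. The ratio of Gbp3 to its neighbour Gbp2 stayed between 0.265 and 0.506 in the 6 tissues.

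The immunity-related GTPases act on vacuoles of intracellular parasites and bacteria. Irgm1, a regulatory member, had 39.1, 101 and 40.1 FPKM in female and 17.0, 25 and 21.9 FPKM in male colon (mean 40.7 ± 31.1 FPKM), overlapping the ovary mean of 21 ± 1.33 FPKM. Heart had 10 ± 2.15 FPKM, and brain, cerebellum and testis had 4.54 ± 0.666, 4.11 ± 0.854 and 3.20 ± 1.5 FPKM. Irgm2 and Igtp are neighbours on chromosome 11, and the ratio of Igtp to Irgm2 ran from 0.671 to 1.19 across tissues. In single libraries the ratio ran from 0.454 to 1.70. The counted locus of Igtp also carries the name of Irgm2, so the reads of these genes may not be fully separated. Iigp1, an effector GTPase, departed from its family. It had its highest mean in heart, at 16.0 ± 4.11 FPKM with libraries from 12.0 to 21.2 FPKM, compared with 9.42 ± 3.16 FPKM in ovary and 7.44 ± 2.91 FPKM in colon, and heart and ovary overlapped.

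Among membrane restriction factors, Ifitm3 blocks the entry of enveloped viruses and Bst2 (tetherin) holds budding virions on the cell surface. Ifitm3 was abundant in every tissue, from 21 ± 6.11 FPKM in brain, 28.9 ± 3.41 FPKM in cerebellum and 30 ± 7.02 FPKM in testis to 107 ± 39.6 FPKM in heart, 153 ± 28.4 FPKM in colon and 217 ± 30.8 FPKM in ovary. Its ovary libraries had 192, 251 and 207 FPKM, and the lowest of these was below the highest colon library at 199 FPKM. Bst2 was the only gene of the 40 for which every ovary library exceeded all others (8.31% of all tested genes did so), with 63.3 to 81.8 FPKM in ovary (mean 72.8 ± 9.28 FPKM) and at most 24.6 FPKM in any other library.

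PARP9 and PARP14 are ADP-ribosyltransferase family proteins, and DTX3L is the ubiquitin ligase that partners PARP9. Dtx3l had 47.4, 119 and 54.2 FPKM in female and 27.9, 35.2 and 34.3 FPKM in male colon, a mean of 53.0 ± 33.8 FPKM. All colon libraries lay above the ovary libraries (12.4 ± 0.714 FPKM). Heart had 7.61 ± 2.16 FPKM and cerebellum, testis and brain had 3.07 ± 0.338, 2.47 ± 0.271 and 2.23 ± 0.432 FPKM. Dtx3l and Parp9 lie head to head on chromosome 16, with starts at 35938934 and 35938518 on the minus and plus strands, and they overlap there on opposite strands. Their ratio stayed between 0.906 and 1.13 in the 6 tissues and between 0.791 and 1.5 in single libraries. Since it is not given whether counting used strand, reads of Dtx3l and Parp9 over their overlap, and those of Dhx58 and Dhx58os, may not be separated.

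RSAD2 (viperin) makes a chain-terminating nucleotide that stops viral polymerases, and CMPK2 is a mitochondrial nucleotide kinase whose gene lies 12750 bases away on the opposite strand of chromosome 12. Rsad2 had 22.9, 82.8 and 39.4 FPKM in female and 2.68, 8.20 and 8.11 FPKM in male colon (mean 27.3 ± 30.3 FPKM). The male libraries thus overlapped heart (8.19 ± 1.74 FPKM). Cerebellum, ovary, brain and testis had 2.08 ± 0.992, 1.86 ± 0.343, 0.786 ± 0.404 and 0.347 ± 0.265 FPKM. Cmpk2 had an unusual order, with 18.1 ± 19.9 FPKM in colon followed by 8.72 ± 0.494 FPKM in brain. The ratio of Rsad2 to Cmpk2 was 0.0902 in brain and 2.94 in heart, so these neighbours did not keep a fixed proportion.

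Of the remaining genes, Cxcl10, which encodes a chemokine that attracts activated T cells, was low everywhere. Its mean was 0.842 ± 0.101 FPKM in ovary, 0.697 ± 0.325 FPKM in colon and at most 0.314 ± 0.299 FPKM in the other tissues, and ovary and colon overlapped. Ifi27l2a, a small interferon-induced mitochondrial protein gene, had means of 81.3 ± 109 FPKM in heart, 76.7 ± 34.4 FPKM in colon and 58.1 ± 19.6 FPKM in ovary, which did not differ beyond their spread. The heart mean rested on a single library. The heart libraries held 44.3, 42.7 and 275 FPKM (female) and 16.9 and 27.3 FPKM (male), and without female heart replicate 3 the highest mean of Ifi27l2a was that of colon. Testis, cerebellum and brain had 8.83 ± 3.61, 2.58 ± 0.708 and 1.52 ± 1.18 FPKM. Rtp4 (a chaperone of receptors), Ifi35, Xaf1 (a promoter of cell death), Trim30a and Ifi44 had colon means from 6.63 to 73.0 FPKM, the highest of the 6 tissues in each case.

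**Figure D2:**
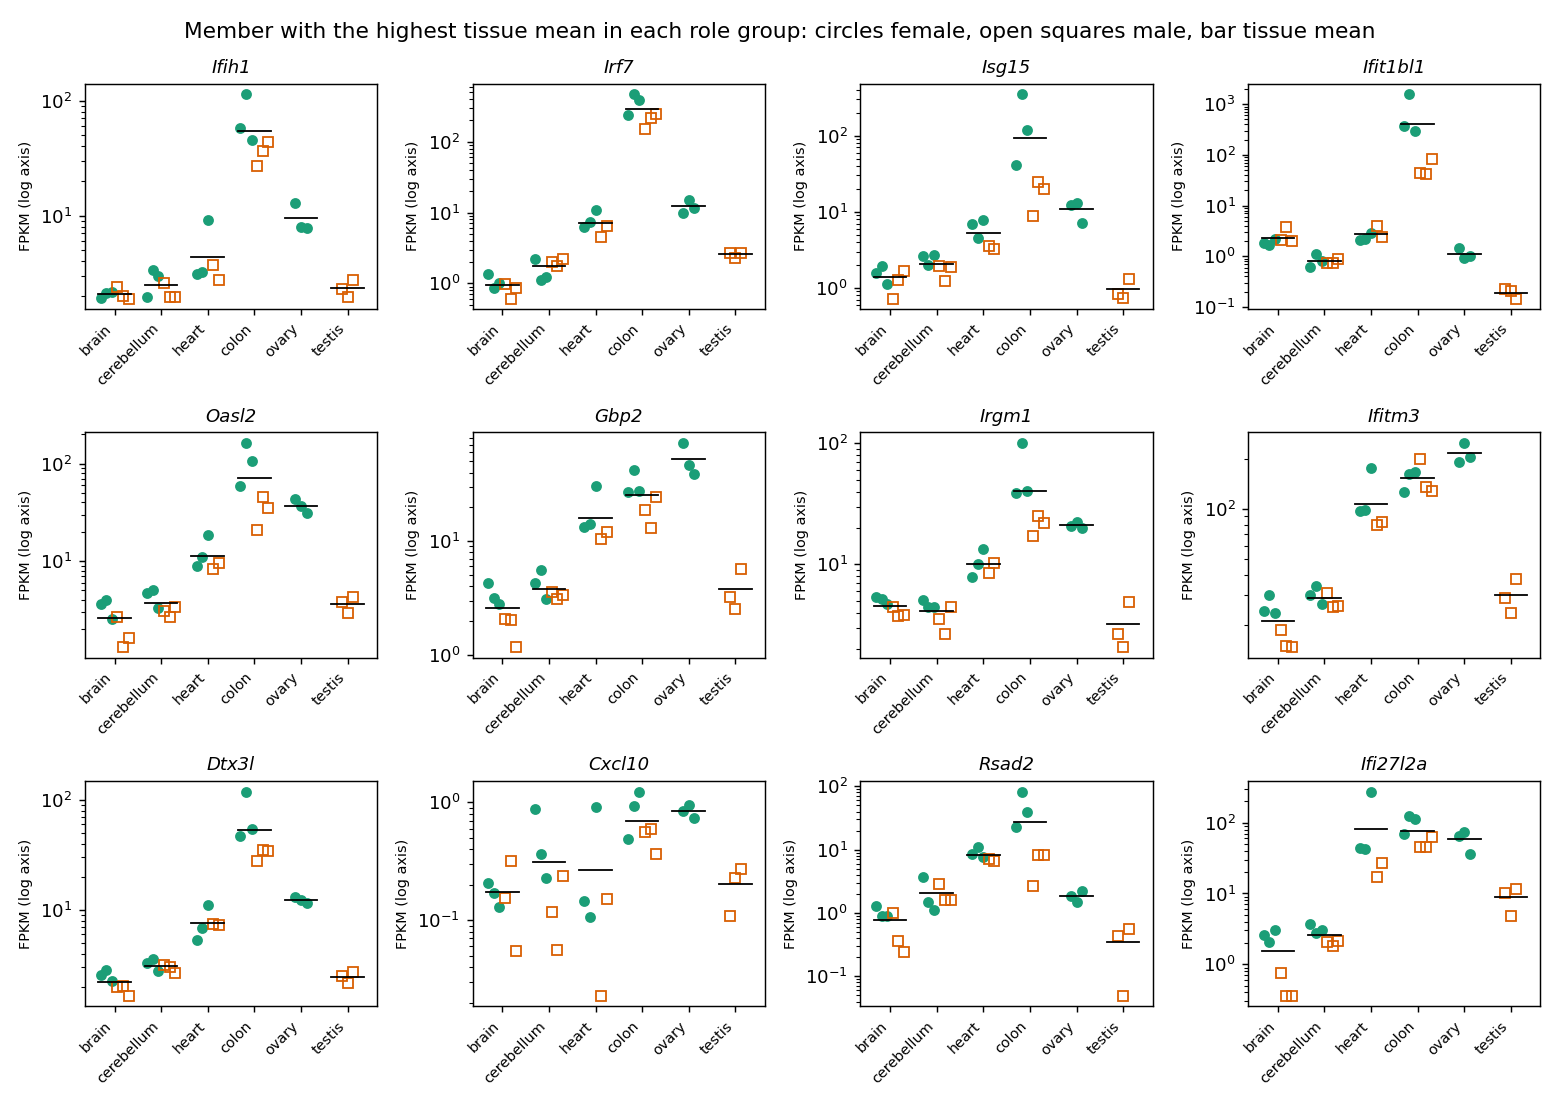
Level of the gene with the highest tissue mean in each of the 12 role groups, in FPKM on a log axis, with 1 point per library and a bar at the tissue mean. Colon points lie above the others for Irf7, Ifih1, Ifit1bl1 and Dtx3l, whereas ovary is highest for Gbp2 and Ifitm3 and all points for Cxcl10 lie near or below 1 FPKM.

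Within colon, 1 library carried much of the signal. Female colon replicate 2 had the highest level of the 6 colon libraries for 35 of the 40 genes (it was highest for 9.02% of all tested genes), and it was at least 2-fold above the mean of the other 5 for 31 genes (4.97% of all tested genes). The median ratio was 3.22. It was smallest for Iigp1 (0.972) and largest for Ifit1bl1, at 9.53 (1602 FPKM compared with 168 FPKM), followed by Isg15 at 8.30. The median level of the 40 genes was 23.6, 63.5 and 30.5 FPKM in female colon replicates 1 to 3 and 11.9, 19.4 and 18.5 FPKM in the male ones. Male colon replicate 1 was lowest of the 6 for 25 genes (6.95% of all tested genes). Leaving this female library out lowered the colon mean by more than 1.5 times for 11 genes, among them Isg15 (94.6 to 42.7 FPKM), Ifit1 (173 to 94.8 FPKM), Ifit2 (36.8 to 18.6 FPKM), Ifit3 (59.4 to 30.8 FPKM) and Herc6 (6.85 to 3.57 FPKM, below its testis mean). The others were Ifit1bl1, given above, Usp18 (27.2 to 13.997 FPKM), Rsad2 (27.3 to 16.2 FPKM), Cmpk2 (18.1 to 10.2 FPKM), Trim30a (21.1 to 13.3 FPKM) and Ifi44 (6.63 to 3.86 FPKM).

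The cell type markers of the colon libraries did not follow the same order. In female replicates 1, 2 and 3 and male replicates 1, 2 and 3, the summed level of 4 gut epithelium genes was 1579, 1670, 1795, 933, 1408 and 1677 FPKM, and that of 4 smooth muscle genes was 3653, 4636, 6271, 10697, 6924 and 4533 FPKM. Male colon replicate 1 was thus lowest in epithelial and highest in muscle genes. It also had the most B cell RNA, with a sum over 4 genes of 59.4 FPKM compared with 2.04 to 5.67 FPKM in the other 5 libraries. Ptprc, which marks all leukocytes, was at 13.2, 8.81 and 9.84 FPKM in female and 36.9, 10.8 and 14.8 FPKM in male colon, so female colon replicate 2 had the lowest level. Summed over 7 genes, macrophage markers were at 125 to 152 FPKM in female and 186 to 299 FPKM in male colon, and 4 plasma cell genes were at 97.7 to 138 FPKM and 148 to 201 FPKM. The 6 T cell genes summed to 5.91 to 8.37 FPKM and 7.97 to 18.9 FPKM, and the 4 endothelial genes to 20.2 to 26.0 FPKM and 25.8 to 36 FPKM. The 4 plasmacytoid dendritic cell genes summed to 9.71 to 11.1 FPKM in female and 9.89 to 14.3 FPKM in male colon. They summed to 119 to 127 FPKM in female and 112 to 124 FPKM in male brain, and their specificity for that cell type was not tested. Neutrophil genes were below 1 FPKM in sum, and each of the 4 was at 0 in some colon libraries. The part of the tissue make-up in the levels of the interferon-stimulated genes was not tested.

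**Figure D3:**
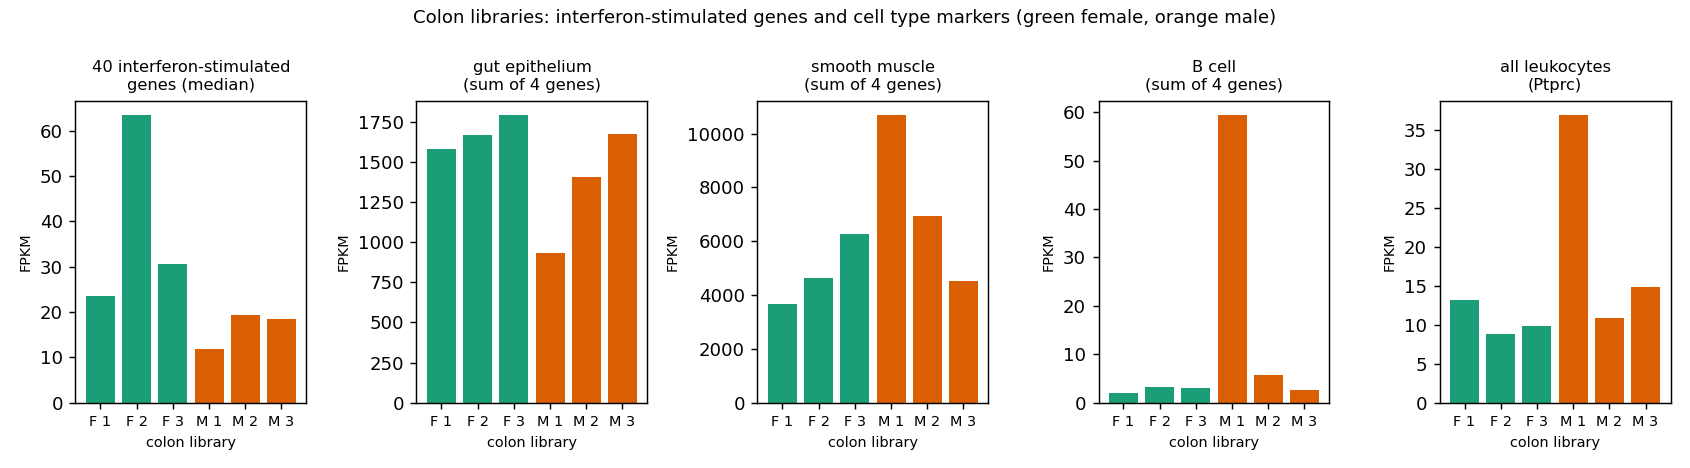
Median level of the 40 interferon-stimulated genes in the 6 colon libraries, in FPKM, with 1 bar per library. The other panels show the summed level of gut epithelium, smooth muscle and B cell markers and the level of the leukocyte marker Ptprc. Female colon replicate 2 is highest for the interferon-stimulated genes at 63.5 FPKM and not for leukocyte markers, and male colon replicate 1 is highest for B cell and smooth muscle markers.

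Colon also differed between the sexes. Every female colon library lay above every male one for 28 of the 40 genes (2.54% of all tested genes), and the reverse held for none (10.8%). The edgeR quasi-likelihood test was run on 29911 genes with P values adjusted by the Benjamini-Hochberg method, and 21 of the 40 were lower in male colon and none was higher. Among all tested genes, 97 (0.324%) were called, 70 of them higher in females (0.234%) and 27 higher in males (0.0903%). At an unadjusted P under 0.05 there were 36 of the 40 genes (8.85% of all tested genes). All 40 log2 differences (male minus female) were negative, from -3.94 (Ifit1bl1) to -0.15 (Ifitm3), with a median of -1.67, compared with 0 over all tested genes. The spread within colon that entered the choice of the genes includes the difference between the sexes, so these counts describe the list and are not independent support for a sex difference. Leaving out an extreme library changed the count. Without female colon replicate 2, 12 genes were called (0.258% of genes tested) and the median was -0.92, and without male colon replicate 1, 10 genes were called (0.144%) with a median of -1.50. With only the 6 colon libraries in the fit 5 were called (0.202%), with a median of -1.69 and 37 genes at an unadjusted P under 0.05.

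**Figure D4:**
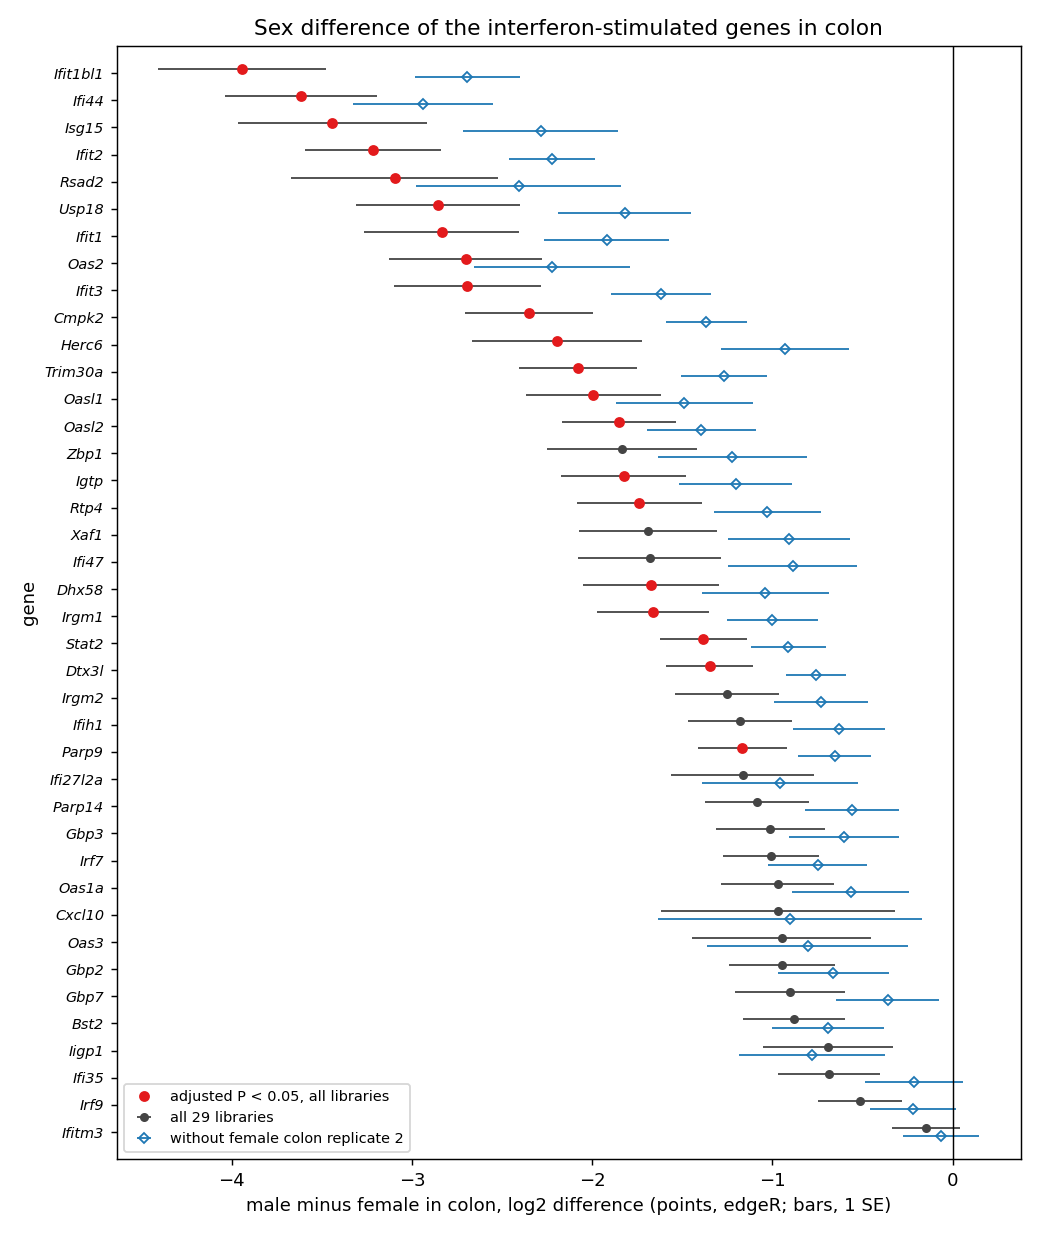
Male minus female log2 difference in colon for each of the 40 genes by edgeR, with bars of the SE. Filled points are from all libraries, and open points are from the fit without female colon replicate 2. The genes called by edgeR with all libraries (21 of 40) are marked, and the differences from all libraries are negative for every gene.

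Ifit1bl1, Ifi44, Isg15, Ifit2 and Rsad2 had the largest fitted differences. Ifi44, an interferon-induced antiviral protein gene, had 10.2, 20.5 and 5.74 FPKM in female and 0.832, 1.17 and 1.34 FPKM in male colon (log2 difference -3.62, SE 0.42, adjusted P = 2.15e-05). Ifit2 had 33.6, 128 and 35.5 FPKM in female and 7.44, 7.99 and 8.57 FPKM in male colon (-3.22, SE 0.38, adjusted P = 2.16e-05). For Ifit1bl1, whose colon levels are given above, the difference was -3.94 (SE 0.47, adjusted P = 2.61e-05). In each of these 3 genes the lowest female library was several-fold above the highest male library. Ifit1 had 145, 566 and 186 FPKM in female and 55.4, 46.7 and 41.2 FPKM in male colon (-2.83, SE 0.43, adjusted P = 0.000998). Ifit3 had 44.4, 203 and 56.1 FPKM and 18.1, 19.3 and 15.9 FPKM (-2.69, SE 0.41, adjusted P = 0.000998). Both sets of male libraries were close to each other, and the spread lay among the females.

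In the ISG15 system all 3 genes were called. The difference was -3.44 for Isg15 (SE 0.52, adjusted P = 0.00103). Usp18 had 18.7, 93.2 and 29.3 FPKM in female and 4.78, 9.73 and 7.50 FPKM in male colon (-2.86, SE 0.45, adjusted P = 0.00164). Herc6, the ligase, had 6.00, 23.2 and 3.69 FPKM and 1.91, 2.86 and 3.39 FPKM (-2.19, SE 0.47, adjusted P = 0.0326), and its lowest female and highest male library nearly met. The difference of Herc6 was -0.93 without female colon replicate 2 (adjusted P = 0.455), and over the alternatives its adjusted P ran from 0.000467 to 0.455. Among the synthetases, Oas2 had 3.49, 8.35 and 4.71 FPKM in female and 0.841, 1.27 and 0.733 FPKM in male colon (-2.70, SE 0.42, adjusted P = 0.00146). The differences of Oasl1 and Oasl2 were -1.99 (SE 0.37, adjusted P = 0.00959) and -1.85 (SE 0.32, adjusted P = 0.00364), where Oasl1 had 32.9, 102 and 63.1 FPKM in female and 10.8, 23.6 and 21.1 FPKM in male colon. Oas1a and Oas3 did not pass the test.

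The nucleotide enzymes passed as well. Rsad2 differed by -3.10 (SE 0.57, adjusted P = 0.00872), and Cmpk2 had 14.8, 57.6 and 16.6 FPKM in female and 4.85, 7.66 and 7.19 FPKM in male colon (-2.35, SE 0.36, adjusted P = 0.000998). Trim30a, a tripartite-motif protein gene, had 20.6, 60.1 and 19.0 FPKM and 10.4, 8.93 and 7.39 FPKM (-2.08, SE 0.33, adjusted P = 0.00146). Rtp4 had 60.7, 189 and 78.2 FPKM and 26.2, 44.9 and 39.2 FPKM (-1.74, SE 0.35, adjusted P = 0.0173). These 4 genes had their highest value in female colon replicate 2. Among the GTPases, Irgm1 differed by -1.66 (SE 0.31, adjusted P = 0.0089), and Igtp, with 25.8, 69.9 and 31.4 FPKM in female and 10.3, 14.9 and 15.1 FPKM in male colon, by -1.83 (SE 0.35, adjusted P = 0.0104).

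Stat2, of the 3 transcription factors, and Dtx3l and Parp9, of the 3 ADP-ribosylation genes, were also called, and Parp14 was not. Stat2 had 16.5, 44.9 and 27.8 FPKM in female and 10.8, 14.6 and 13.0 FPKM in male colon (-1.38, SE 0.24, adjusted P = 0.00512). Dtx3l differed by -1.35 (SE 0.24, adjusted P = 0.0056). Parp9, its partner, had 47.2, 103 and 49.5 FPKM and 27.5, 34.6 and 37.3 FPKM (-1.17, SE 0.25, adjusted P = 0.0284). Of the sensors, Dhx58 was just inside the threshold, with 8.78, 27.3 and 13.1 FPKM in female and 5.32, 7.81 and 4.22 FPKM in male colon (-1.68, SE 0.38, adjusted P = 0.0495), and Zbp1 was just outside (-1.84, SE 0.42, adjusted P = 0.0517). The 3 Gbp genes, Irf7 (adjusted P = 0.131), Irf9, Bst2 and Cxcl10 were among the 19 that did not pass. Ifitm3 had 127, 162 and 167 FPKM in female and 199, 135 and 128 FPKM in male colon (adjusted P = 0.914), so its groups overlapped.

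Across 13 alternative settings 5 genes, Ifit1, Ifit2, Ifit1bl1, Ifi44 and Oas2, were called each time, and the other 16 lost the call in at least 1, all of them in the fit of the colon libraries alone, where the median difference was about as large as in the fit of all libraries. Without female colon replicate 2 the 9 genes Dhx58, Stat2, Herc6, Oasl1, Irgm1, Igtp, Parp9, Rsad2 and Rtp4 were no longer called. All 21 differences were smaller without that female library. For genes that kept the call they were -2.69 (Ifit1bl1), -2.94 (Ifi44), -2.22 (Ifit2), -2.22 (Oas2), -2.29 (Isg15), -1.92 (Ifit1), -1.82 (Usp18), -1.62 (Ifit3), -1.40 (Oasl2), -1.37 (Cmpk2), -1.27 (Trim30a) and -0.76 (Dtx3l). For those that lost it they were -2.41 (Rsad2), -1.49 (Oasl1), -1.20 (Igtp), -1.04 (Dhx58), -1.03 (Rtp4), -1.0016 (Irgm1), -0.93 (Herc6), -0.91 (Stat2) and -0.65 (Parp9). Without male colon replicate 1 the same 9 and also Oasl2 and Dtx3l were not called.

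The other tissues did not give such calls. By edgeR, none of the 40 genes differed between the sexes in brain, cerebellum or heart, where 0.0368%, 0.0301% and 0.0635% of the tested genes were called. At an unadjusted P under 0.05 there were 6, 2 and 2 of the 40 genes by edgeR (4.83%, 3.06% and 9.65% of all tested genes). DESeq2 called 1, 0 and 1 of the 40, and the share it called over all genes is not given here. The median log2 differences were -0.34, -0.34 and -0.16, and 8, 6 and 17 of the 40 genes were higher in males by value. The lowest adjusted P over the genes was 0.680 in brain and 0.139 in heart. Whether the sex difference itself varied among the 4 tissues was tested as an interaction with 3 degrees of freedom. Of 5 genes called over the whole table (0.0167%), 3 were interferon-stimulated genes, Ifit1bl1 (adjusted P = 0.00943), Ifit2 (adjusted P = 0.0311) and Ifi44 (adjusted P = 0.0452). The interaction rests on the same colon libraries as the choice of the genes, so this count is a description too. There were 2 of the 40 without female colon replicate 2, and none of the 40 was called without male colon replicate 1 or without male colon replicate 2.

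In heart, female replicate 3 stood apart. It had the highest level of the 5 heart libraries for 37 of the 40 genes, but 53.5% of all tested genes were highest there. With library sizes scaled by TMM, which removes a shift shared by most genes (0.47 on the log2 scale in this library), 17 of the 40 genes (29.5% of all tested genes) remained highest in it, and 4 were at least 2-fold above the mean of the others (15.5%). Cxcl10 was 8.51-fold above that mean, on 49 counts compared with 1 to 8 in the other heart libraries. Ifi27l2a was at 275 FPKM compared with 32.8 FPKM. Both comparisons are by library total. The same library had a B cell marker sum of 41.0 FPKM compared with 1.76 to 3.38 FPKM, plasma cell genes at 49.8 FPKM compared with 2.52 to 4.13 FPKM, Ptprc at 22.6 FPKM compared with 3.03 to 4.59 FPKM and macrophage genes at 287 FPKM compared with 115 to 151 FPKM. Its 3 heart muscle genes summed to 5992 FPKM compared with 8193 to 9000 FPKM. The part of these in the levels of Cxcl10 and Ifi27l2a was not tested.

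Spread between libraries of the same tissue and sex had its highest median in colon with all libraries, and this order rests on single libraries. Expressed as the pooled SD of log2 CPM, the counts scaled to a common library size by TMM, the median over the 40 genes was 0.63 in colon compared with 0.38 over all tested genes, and 39 of the 40 genes lay above that all-gene median. Without female colon replicate 2 these medians were 0.42 and 0.37. Testis came next, at 0.43 compared with 0.21, with 35 of the 40 genes above the all-gene median, and its median was 0.24 without testis replicate 3. Brain (0.32 compared with 0.26) and cerebellum (0.36 compared with 0.30) were above, whereas heart (0.28 compared with 0.43) and ovary (0.26 compared with 0.30) were below the all-gene value. The direction in ovary turned among genes with at least 50 counts (0.256 compared with 0.243), and in cerebellum the gap was then wider (0.342 compared with 0.212). Without female heart replicate 3 the heart medians were 0.22 and 0.27. Over genes with at least 50 counts, the median variance of counts divided by their mean was 303 for the interferon-stimulated genes and 12.3 for all genes in colon, 58.6 and 30.8 in heart, 14.6 and 11.99 in ovary and 11.5 and 4.56 in testis. It was below the all-gene value in brain (5.73 and 8.69) and cerebellum (8.74 and 10.8). This ratio was not computed without female colon replicate 2 or female heart replicate 3.

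**Figure D5:**
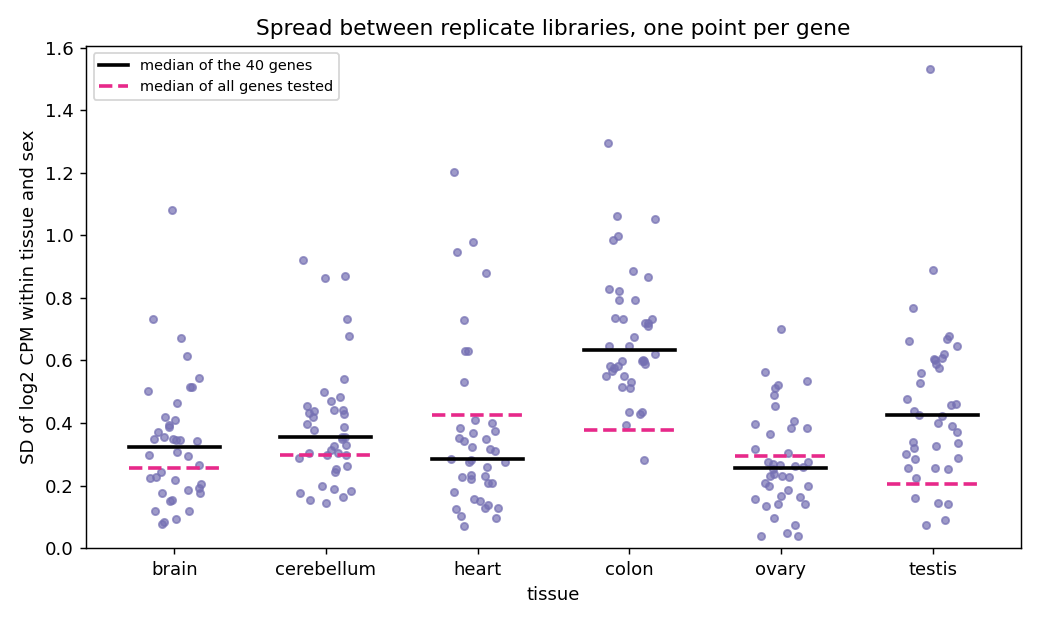
Pooled SD of log2 CPM between libraries of the same sex in each tissue, with 1 point per interferon-stimulated gene, a black line at their median and a dashed line at the median of all tested genes. The colon points lie around 0.63, above the all-gene median of 0.38, and the heart and ovary medians lie below theirs, in ovary only with low-count genes included.

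The 3 genes with the widest spread in each tissue were taken among those with a mean of at least 50 counts, and Ifi27l2a, Herc6 and Iigp1 were among them in more than 1 tissue. In colon these were Isg15 (SD 1.29), Herc6 (1.06) and Ifit1bl1 (1.05). In testis they were Igtp (0.89), with 2.29, 0.92 and 3.09 FPKM, Iigp1 (0.77), with 4.05, 2.15 and 6.22 FPKM, and Ifi27l2a (0.68), with 10.2, 4.75 and 11.6 FPKM. Testis replicate 2 was the lowest in each of these, and it was lowest for 33 of the 40 genes (33.9% of all tested genes), whereas replicate 3 was highest for 34 (33.9%). In heart the widest were Oas3 (0.98), with 0.638, 0.805 and 0.283 FPKM in female and 0.358 and 0.494 FPKM in male libraries, Ifi27l2a (0.95) and Zbp1 (0.88), with 0.559, 0.475 and 3.01 FPKM and 0.434 and 0.646 FPKM. Female heart replicate 3 was high for Ifi27l2a and Zbp1 but lowest for Oas3. Ovary was led by Herc6 (0.56), with 2.88, 1.17 and 1.73 FPKM, Dhx58 (0.54), with 2, 2.73 and 3.81 FPKM, and Ifi27l2a (0.52), with 63.9, 74.1 and 36.1 FPKM. These 3 did not share an order of libraries.

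In cerebellum the widest were Rsad2 (0.73), with 3.69, 1.48 and 1.13 FPKM in female and 2.89, 1.63 and 1.63 FPKM in male libraries, Rtp4 (0.54), with 5.48, 4.32 and 2.68 FPKM and 2.20, 1.54 and 3.15 FPKM, and Gbp3 (0.50), with 1.30, 2.27 and 1.73 FPKM and 1.41, 0.808 and 1.81 FPKM. Replicate 1 was the highest female library for Rsad2 and Rtp4 and the lowest for Gbp3. In brain they were Iigp1 (0.55), with 1.03, 0.771 and 0.530 FPKM and 0.868, 0.317 and 0.605 FPKM, Ifit1 (0.50), with 2.57, 2.25 and 1.94 FPKM and 1.78, 2.67 and 1.03 FPKM, and Herc6 (0.46), with 0.650, 1.18 and 1.23 FPKM and 1.70, 1.5 and 0.993 FPKM. The sexes overlapped for all 3.

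The rest of the pathway was read from 97 other genes (ligands, receptors, kinases and transcription factors, sensors and adaptors, feedback inhibitors and further interferon-stimulated genes), of which 77 passed the filter. In colon, 68 of these 77 were higher than the mean of the other 5 tissues, 3 were lower and 6 did not pass the edgeR test, whereas 28.2% of all tested genes were higher and 31.1% lower. All 40 interferon-stimulated genes were called higher in this contrast, which is the one their choice rests on. Ovary followed with 50 of the 77 higher (22.4% of all tested genes) and 5 lower (19.8%), and heart with 43 higher (22.1%) and 6 lower (29.6%), or 36 higher without female heart replicate 3. Brain and cerebellum were the reverse. In brain 63 of the 77 were lower (23.1%) and 3 higher (33%), and in cerebellum 64 were lower (22%) and 3 higher (30.8%). Testis had 46 lower (26.7%) and 10 higher (40.4%). Lists of this kind were compiled with results of these data known, and the 6 contrasts share libraries.

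Interferon ligands had few counts. Of 21 ligand genes, Ifnk (interferon kappa, an epithelial type I interferon) was the 1 that passed the filter, with 4.02 FPKM in female colon replicate 1, 0.66 to 1.52 FPKM in the other colon libraries and at most 38 counts in a library. It was higher in colon than in the other tissues (log2 difference 3.44, SE 0.51, adjusted P = 1.73e-06). The other 20 had at most 5 counts in any library, and 10 of them, Ifnb1 among these, had 0 counts in all 29 libraries, which allows up to 3 counts in each, or 0.0821 to 0.455 FPKM depending on library and gene. Absence of ligand RNA from these tissues cannot be read from such counts.

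Receptors and kinases differed in both directions. In colon 5 receptor genes were higher and 1 was lower, with Ifngr1, a chain of the IFN-gamma receptor, at a log2 difference of 2.77 and Ifnar2, a chain of the type I receptor, at -0.51. In heart, Il10rb, which serves the type III receptor, was higher by 3.30 and Ifngr2 by 2.84. Of the kinases and transcription factors 8 were higher in colon and 1 was lower. The higher ones included Irf1 (3.59), a factor induced by IFN-gamma, Irf8 (2.23) and Jak2 (1.67), and Jak1 was at -0.35. Of 12 sensors and adaptors 10 were higher in colon, among them Ikbke (2.99), a kinase that activates interferon regulatory factors, and Ticam1 (1.64), the adaptor of TLR3, and Mavs, the adaptor of the RNA helicases, was higher in heart (1.70). Of 45 other interferon-stimulated genes 42 were higher in colon, including Helz2 (4.36), Trim25 (3.36) and Oas1g (6.00). Among feedback inhibitors, Ptpn6 (1.62) was higher and Pias1 (-0.47) lower in colon, Pias1 was higher in testis (2.03) and Socs3 was higher in ovary (2.22).

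Of the 77 pathway genes, 9 were called by edgeR for sex in colon, all lower in males, where 0.324% of all tested genes were called. They were Mx2 (log2 difference -2.84, adjusted P = 0.000615), a dynamin-like antiviral GTPase, Phf11d (-2.42, adjusted P = 0.00117), Ifit3b (-2.86, adjusted P = 0.00302), Ifit1bl2 (-2.22, adjusted P = 0.00949), Rnf213 (-1.52, adjusted P = 0.0173), Ddx60 (-2.12, adjusted P = 0.0173), Trim34a (-1.35, adjusted P = 0.0208), Ddx58 (-1.21, adjusted P = 0.042), which encodes the RNA sensor RIG-I, and Eif2ak2 (-1.22, adjusted P = 0.0457), which encodes the kinase PKR. Ifit3b and Ifit1bl2 are close relatives of Ifit3 and Ifit1bl1, and their reads may not be separable. Without female colon replicate 2, 3 of the 77 were called (0.258% of all tested genes), and without male colon replicate 1, 3 (0.144%).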

How the data were processed

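Adult mouse RNA-seq (29 libraries, 10 groups) was analysed from raw counts per gene as deposited by the authors. Per the submitters' processing notes, reads were checked with FastQC 0.11.8 and MultiQC 0.9, aligned to mm10 with HISAT2 2.0.5 and counted with featureCounts 1.6.3. The counted annotation merged long-read (Iso-seq) gene models with ENSEMBL genes not overlapped by them on the same strand. Whether reads were counted by strand is not given in the sources used here. Of the 40 genes, 35 were counted at Iso-seq loci and 5 at ENSEMBL models, and the counted exons of 22 covered under 80% of their GENCODE M21 exon bases, which can lower their levels. FPKM was computed from these counts, the library total and the union of exon lengths.

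Counts were tested with edgeR 4.0.16 (R 4.3.3; TMM, filterByExpr, quasi-likelihood test, 1 mean per group, Benjamini-Hochberg over all genes tested, threshold 0.05), after the procedure had been tested on simulated data. Alternatives were DESeq2 1.42.0, DESeq2 size factors in edgeR, no filter, blocks, tissue-only fits and each library left out, and, chosen after seeing the data, leaving out both libraries that stood apart. Replicates of a group differed by more than sampling noise in all 28 pairs, so each was counted once. Single-library values are printed for the highest gene of each role in the tissue of its highest mean, except for Cxcl10. They are also printed for the 3 genes with the widest spread per tissue, in that tissue. For every interferon-stimulated gene called for sex or interaction they are printed in colon. For the other pathway genes, up to 3 per role with the smallest adjusted P are given. Pathway genes called for sex in colon, and the lower genes Ifnar2, Jak1 and Pias1 in colon, were named after their values were seen. The members and all gene lists were chosen with earlier results of these data known. Promoter motifs were not searched. The marker gene that did not separate its tissue is not reported here. Depth limits the low genes most, and the limit behind a count of 0 covers counting error only.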

Additional observations from a re-analysis of the deposited data

Results flagged for a closer look

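For 3 interferon-stimulated genes the male minus female difference differed between tissues by the edgeR interaction test, and all 3 owed this to colon by value. For Ifit1bl1 (adjusted P = 0.00943) the log2 differences were 0.57 in brain, -0.11 in cerebellum, 0.61 in heart and -3.94 in colon. For Ifit2 (adjusted P = 0.0311) they were -0.06, -0.48, 0.07 and -3.22 in the same order. For Ifi44 (adjusted P = 0.0452) they were -0.02, -0.76, -0.25 and -3.62. Of these 12 differences only the 3 in colon passed the test within their own tissue. The interaction uses the colon libraries whose levels and spread entered the choice of these genes. None of the 3 was called without male colon replicate 1 or without male colon replicate 2.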

How the results depend on the processing

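The count of genes called for sex in colon was 21, and it was 19 to 24 with DESeq2 size factors, without the filter and under the replicate block or the library code block, 5 with colon libraries only, 14 without both libraries that stood apart, 30 with DESeq2 and 10 to 28 with each library left out. Same-numbered libraries of different tissues did not deviate together (highest correlation 0.0931 over 56 pairs), so the replicate block, which gave 19, pairs only numbers. The library code block joined libraries of a sex whose longer codes in the labels share a leading digit, with the remaining libraries of that sex together, and 4 of 50 pairs in the same block had a correlation above 0.1 (highest 0.223). The labels do not say what the codes mark, and this block gave 23. In brain and heart DESeq2 called 1 gene each, and leaving out a library gave 0 to 1 in heart. The interaction calls numbered 5 without the filter, 1 under the replicate block and 14 with DESeq2, and 0 to 8 with a library left out. These counts stand without the share of all tested genes called, so they are not comparable between settings by themselves. For sex in colon that share was 0.324% in the main fit and 0.202% with colon libraries only. It was 0.258% without female colon replicate 2 and 0.144% without male colon replicate 1.

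The median level by tissue changed with the unit. As TPM it was 3.05 in brain, 3.92 in cerebellum, 8.87 in heart, 46.4 in colon, 13.7 in ovary and 3.998 in testis, with TMM it was 7.02 in ovary, and over genes that share no exon base it was 2.06 in brain.

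The median spread (SD of log2 CPM) in brain, cerebellum, heart, colon, ovary and testis was 0.31, 0.34, 0.54, 0.58, 0.24 and 0.42 when scaled by library total, 0.33, 0.36, 0.29, 0.63, 0.26 and 0.43 with a prior count of 0.5, and 0.23, 0.34, 0.28, 0.64, 0.26 and 0.37 over genes with at least 50 counts. Taken over both sexes it was 0.39 in brain, 0.37 in cerebellum, 0.30 in heart and 1.02 in colon. With each library left out it ranged from 0.26 to 0.34 in brain, 0.33 to 0.41 in cerebellum, 0.22 to 0.32 in heart, 0.42 to 0.71 in colon, 0.18 to 0.26 in ovary and 0.24 to 0.48 in testis. The causes of these changes were not tested.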
